A study of Homo sapiens with 10 samples.

Results

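The acyl-CoA synthetase and fatty acid uptake genes were described in PC3 cells, a human prostate cancer line of epithelial origin, with and without an agonist of the liver X receptors. They comprised 10 of the 62656 genes of the RPKM table (reads per kilobase of gene, scaled for the depth of the library): the 5 long-chain acyl-CoA synthetases ACSL1, ACSL3, ACSL4, ACSL5 and ACSL6, the 4 fatty acid transport proteins SLC27A1 to SLC27A4 and the scavenger receptor CD36. The genes were picked by name with the results of the comparison of GW3965 with DMSO known, so their changes between the groups are given as a description.

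All cells were PC3, starved overnight and kept in RPMI-1640 with L-glutamine. The DMSO group held 5 libraries of cells given the vehicle for 24 h, and the GW3965 group held 5 libraries of cells given GW3965 at 1 µM for 24 h. No source used here states that the 5 replicates were separate cultures, so the p-values measure the spread between these samples, which may be technical.

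Fatty acids that enter a cell are of little use until coenzyme A is attached to them. ACSL enzymes carry out this activation for long chains, and each acts at its own membranes and with its own preferred chains. SLC27 proteins, also called fatty acid transport proteins, have acyl-CoA synthetase activity too and promote uptake, while CD36 binds long-chain fatty acids at the cell surface. The liver X receptors are nuclear receptors for oxysterols that switch on genes of cholesterol export and of fatty acid synthesis. With the retinoid X receptor they bind DNA at a hexamer that is repeated in the same direction after a short spacer.

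ACSL3, which works at the endoplasmic reticulum and on lipid droplets, was the gene whose level differed most, and the DNA before its start is printed to show the letters that resembled such a repeat. The stretch lies at chr2:222860786-222860933 (GRCh38.p14, RefSeq, plus strand), ends where the first transcript of ACSL3 in GENCODE 29 begins and has 77.0% G and C. Capitals mark the 2 hexamers of a repeat with a 4-base spacer, read on the minus strand, and 3 GC boxes (GGGCGG, here as CCGCCC), of which the first pair lie side by side. No GC box overlapped the repeat.
ACSL3: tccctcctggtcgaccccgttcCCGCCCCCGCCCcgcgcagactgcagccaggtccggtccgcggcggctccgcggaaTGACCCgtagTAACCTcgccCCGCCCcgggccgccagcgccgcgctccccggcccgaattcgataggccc
The stretch before ACSL4, an enzyme with a preference for arachidonic acid and other polyunsaturated chains, is shown beside it as that of the family member next to ACSL3 in level. It lies at chrX:109733404-109733507 on the minus strand, has 78.8% G and C and held 1 GC box, in capitals, and no such repeat.
ACSL4: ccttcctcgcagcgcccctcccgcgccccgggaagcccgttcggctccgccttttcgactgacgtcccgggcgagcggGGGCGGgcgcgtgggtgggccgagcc

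RefSeq promoter windows, from 250 bases before to 50 after each start, were found for 10 of 10 genes, in 26 windows of 35116. An exact repeat for the liver X receptor (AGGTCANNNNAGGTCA, both strands) was in 0.0199% of all windows and in 0 of the 26. With up to 1 mismatch in each hexamer, an allowance made after the ACSL3 sequence had been read, the repeat was in 1.38% of all windows and in 2 of the 26. These were the window of ACSL3 and the second window of ACSL5. The match of ACSL3 lay 172 to 157 bases before the RefSeq start, at chr2:222860864-222860879. In ACSL5 the match lay at chr10:112376038-112376053 on the plus strand, 167 to 152 bases before a start. Among 4 windows of established target genes of the receptor, ABCA1 held a match at chr9:104928209-104928224. The 3 matches are set side by side, 5′ to 3′ on the strand of the repeat, with the hexamers in capitals.
ACSL3: AGGTTActacGGGTCA
ACSL5: AGGCCAcaggAGGGCA
ABCA1: AGGTTActatCGGTCA
Each match is a description of letters, and binding was not tested.

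The other motifs were as frequent among the windows as follows. The PPAR repeat AGGTCANAGGTCA was in 0.0228% of all windows and the SRE-1 core of the LDL receptor promoter in 0.0456%, each in 0 of the 26. The E-box CACGTG was in 7.26% of all windows and also in 0 of the 26. The hexamer AGGTCA alone, which the repeats contain, was in 13.8% of all windows and in 3 of the 26, of ACSL5 and ACSL6. The CCAAT box was in 34.6% of all windows and in 4 of the 26, of ACSL1, ACSL3, SLC27A1 and CD36. GC boxes were in 45.0% of all windows and in 12 of the 26. By gene, 48.3% of all genes and 8 of the 10, all but ACSL5 and CD36, had a window with a GC box.

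The deposited values gave back whole reads, 30432106 to 41639229 per library, of which 12.0 to 23.2% were 7SL RNA. The keratins of the epithelium were abundant (KRT8 29.8 to 41.4 RPKM, KRT18 42.7 to 58.5, KRT19 123 to 174), whereas the adhesion genes EPCAM (1.20 to 2.16) and CDH1 (0.152 to 0.518) were low and KLK3, a gene of androgen-responsive prostate cells, had 0 reads in all 10 libraries. Markers of other cells that carry CD36 were low in both groups. No library exceeded 0.337 RPKM for the macrophage markers PTPRC, CD14 and CSF1R, 0.760 for the endothelial markers PECAM1, CDH5 and VWF, 0.535 for the adipocyte markers ADIPOQ, PLIN1 and LEP, or 0.260 for the hepatocyte markers ALB, APOA2 and SERPINA1. All 6 target genes of the receptor used to check the treatment were higher with GW3965, from a log2 fold change of 0.74 for SREBF1 to 2.29 for ABCA1, and passed the threshold by limma. Without DMSO 1, GW3965 1 and GW3965 2, SREBF1 (limma, adjusted p = 0.0907) and MYLIP (limma, adjusted p = 0.101) did not pass. Libraries also differed within the groups. The first principal component held 48.5% of the variance of the 500 most variable genes. On it DMSO 1 (8.08), GW3965 1 (9.90) and GW3965 2 (9.18) stood at 1 end and DMSO 4 (-10.1) at the other. Some results are therefore also given without these libraries.

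The levels of the 10 genes spread widely in the DMSO libraries. ACSL3 (10.9 ± 1.29 RPKM, SD, n = 5), SLC27A4 (10.0 ± 0.780) and ACSL4 (9.12 ± 1.84) stood at the top, and the range of each overlapped that of its neighbour in this order. SLC27A1 (3.35 ± 0.244) and ACSL1 (3.01 ± 0.346) followed, below ACSL4 in 5 of 5 libraries, and their ranges overlapped. SLC27A3 lay below both at 1.45 ± 0.151 RPKM. The remaining 4 genes, SLC27A2, ACSL5, ACSL6 and CD36, lay under 0.5 RPKM in every library. With GW3965, ACSL3 (18.9 ± 0.702 RPKM) stood above ACSL4 (11.6 ± 1.13) in 5 of 5 libraries without overlap, ACSL4 stood next with SLC27A4 (9.67 ± 0.819) overlapping it, and ACSL1 (3.78 ± 0.229) and SLC27A1 (3.33 ± 0.571) overlapped.

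**Figure D1:**
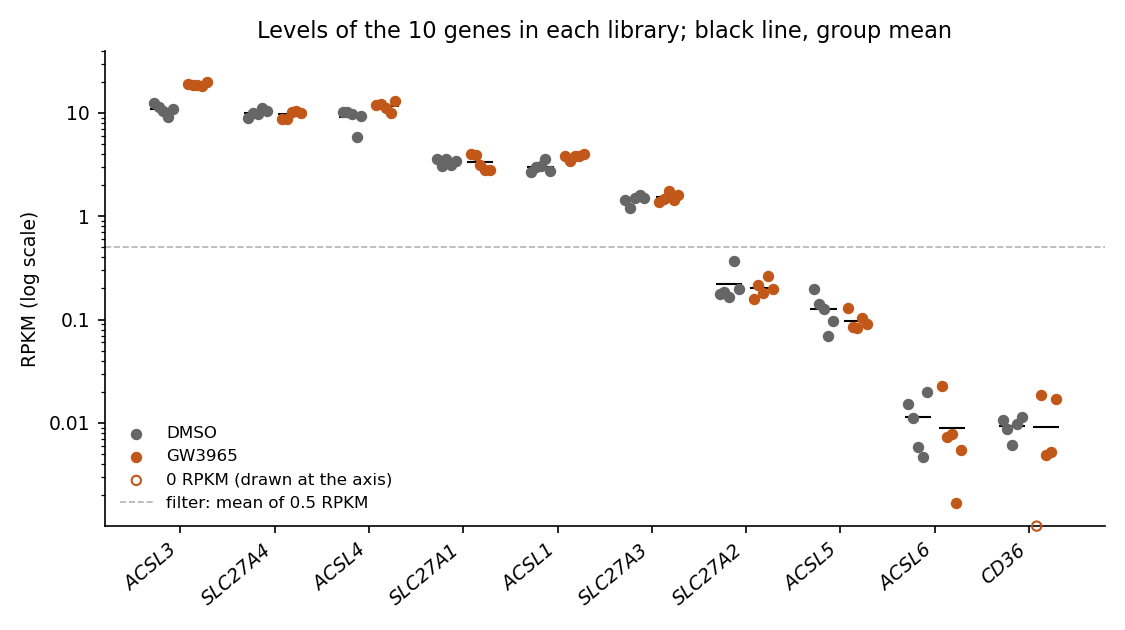
RPKM of the 10 genes in each of the 5 DMSO (grey) and 5 GW3965 (orange) libraries on a log axis; points are libraries, black lines group means, the dashed line the mean of 0.5 RPKM required for a test, and an open point a library at 0. The GW3965 points of ACSL3, 18.2 to 20.1 RPKM, lie above all of its DMSO points, 9.07 to 12.5, and the points of the other genes overlap between the groups.

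The plot of levels orders the genes per length of gene, and the length decides part of that order. The authors' values implied 14436 bases for ACSL3 and 9971 for ACSL4, where the merged exons of GENCODE 29 have 7240 and 6415. The GENCODE 29 lengths were used as well, a choice made after the lengths were seen. With them the DMSO mean was 21.7 RPKM for ACSL3, 14.2 for ACSL4 and 10.4 for SLC27A4. The reads were still those the authors counted, so these values may be too high where reads lay outside the GENCODE 29 exons. The ratio of the group means of a gene does not depend on the length used.

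ACSL3 was higher in each GW3965 library than in any DMSO library. Its DMSO libraries 1 to 5 held 12.5, 11.5, 10.4, 9.07 and 11.0 RPKM, from 4535 to 7050 reads. Its GW3965 libraries held 19.0, 18.8, 18.6, 18.2 and 20.1 RPKM, from 9279 to 10846 reads. The lowest GW3965 library thus stood well above the highest DMSO library, and the GW3965 libraries were close to each other. On the scale of log2(RPKM + 0.1), used for every fold change here, it rose by 0.80 (standard error 0.08), a 1.74-fold difference in means (limma, adjusted p = 0.00165, Benjamini-Hochberg over 20402 tested genes). By this test 30 of all tested genes were higher (0.147%) and 2 lower (0.0098%), and ACSL3 was ninth in order of p, a place that the choice of genes had used. The total of 32 was 17 without GW3965 2 or GW3965 4, 18 without DMSO 3 and 19 without GW3965 3. In bulk RNA, more cells that make a transcript and more transcript per cell cannot be told apart. Without DMSO 1, GW3965 1 and GW3965 2 the log2 fold change was 0.85 (limma, adjusted p = 0.0221), and over all 23 alternatives it stayed between 0.74 and 0.85 with an adjusted p of 5.77e-05 to 0.0221.

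ACSL3 lies at chr2:222860934-222944639 on the plus strand (GRCh38, GENCODE 29). It shares this span with AC013476.1, an antisense RNA of 0.249 RPKM in DMSO and 0.347 in GW3965, and with ATG12P2, a pseudogene on the opposite strand of 0.790 and 1.10 RPKM. Both were far below ACSL3. The library kit kept strand, but the strand setting of the counting is not given in the sources used here, so the reads of overlapping genes may be mixed.

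ACSL4 overlapped between the groups. Its DMSO libraries 1 to 5 held 10.3, 10.3, 9.80, 5.91 and 9.32 RPKM and its GW3965 libraries 12.0, 12.2, 11.1, 10.0 and 13.0. Of the GW3965 libraries, 4 of 5 lay above the highest DMSO library, and DMSO 4 lay far below the rest. The log2 fold change of 0.37 (standard error 0.14) did not pass the threshold (limma, adjusted p = 0.603). Without DMSO 4 the DMSO mean was 9.92 ± 0.457 RPKM and the log2 fold change 0.22. ACSL4 lies at chrX:109624244-109733403 on the minus strand.

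ACSL1, an enzyme abundant in liver, fat and heart, was below ACSL3 and ACSL4 in every library. Its DMSO libraries held 2.68, 3.01, 3.04, 3.57 and 2.76 RPKM, against 3.87, 3.40, 3.80, 3.81 and 4.02 with GW3965. Only GW3965 2 fell among the DMSO values, and here DMSO 4 was the highest of its group. The log2 fold change of 0.32 (standard error 0.08) had an unadjusted p of 0.00235 and an adjusted p of 0.245 by limma. With the first principal component as a covariate, it was 0.35 with an adjusted p of 0.0351, the only 1 of 23 alternatives in which ACSL1 passed. ACSL1 lies at chr4:184755595-184826818 on the minus strand.

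The other members of the family were near the limit of detection and were not tested. ACSL5, which sits at mitochondria and the endoplasmic reticulum, averaged 0.127 RPKM in DMSO (11 to 28 reads per library) and 0.0975 in GW3965 (12 to 18 reads). ACSL6, best known from brain, lies at chr5:131949973-132012243 on the minus strand and had 3 to 11 reads per DMSO library and 1 to 13 per GW3965 library. ACSL5, at chr10:112374018-112428380 on the plus strand, overlaps ZDHHC6 on the opposite strand, which held 3.66 RPKM in DMSO and 3.81 in GW3965, far above ACSL5.

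The summed level of the 5 ACSL genes did not overlap between the groups, at 18.6 to 25.7 RPKM with DMSO and 32.1 to 37.1 RPKM with GW3965. Its mean was 23.2 ± 2.75 and 34.5 ± 1.86 RPKM (SD, n = 5). ACSL3 made up 47.1 ± 1.82% of the sum in DMSO and 55.0 ± 1.05% in GW3965, again without overlap. The share of ACSL4 was 39.0 ± 4.14% and 33.7 ± 1.66%, and that of ACSL1 13.3 ± 3.39% and 11.0 ± 0.733%. With the GENCODE 29 lengths the share of ACSL3 was 55.6 ± 2.11% and 63.1 ± 1.14%, with the limit given above for these lengths. The sums carry the difference in ACSL3 that the choice of genes had used, so no test is given for them.

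**Figure D2:**
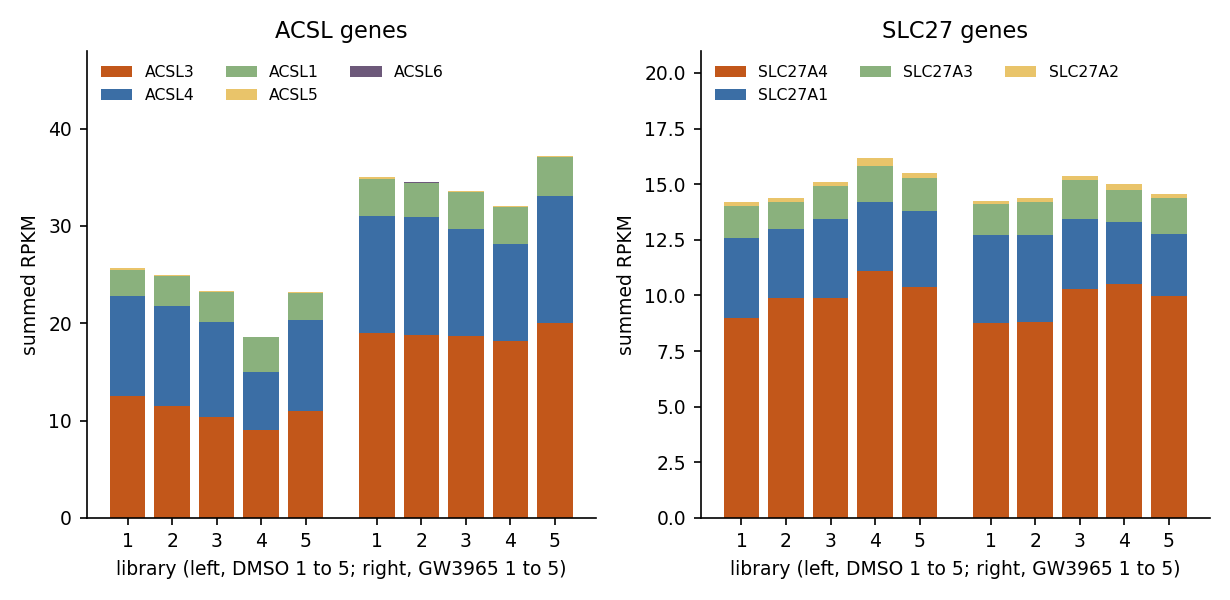
Summed RPKM of the 5 ACSL genes (left panel) and of SLC27A1 to SLC27A4 (right panel) in each of the 10 libraries, with 1 colour per gene and DMSO 1 to 5 to the left of GW3965 1 to 5. The ACSL columns are 32.1 to 37.1 RPKM high with GW3965 and 18.6 to 25.7 with DMSO, while the SLC27 columns overlap at 14.2 to 16.2 RPKM with DMSO and 14.3 to 15.4 with GW3965.

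The fatty acid transport proteins showed no difference of that kind, as the columns of summed RPKM by library show. The sum of SLC27A1 to SLC27A4 was 15.1 ± 0.819 RPKM in DMSO and 14.7 ± 0.459 in GW3965 (SD, n = 5), and the groups overlapped. SLC27A4, also known as FATP4 and abundant in gut and skin, supplied 66.6 ± 2.32% and 65.6 ± 4.02% of it.

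SLC27A4 was the leading transport protein in all 10 libraries. DMSO libraries 1 to 5 held 8.98, 9.88, 9.86, 11.1 and 10.4 RPKM, against 8.76, 8.83, 10.3, 10.5 and 9.98 with GW3965. The log2 fold change was -0.05 with a 95% interval of -0.22 to 0.11 (limma, adjusted p = 0.947). Its span at chr9:128340646-128361470 also holds TMSB4XP4, a processed pseudogene on the same strand with 64.3 RPKM in DMSO and 70.1 in GW3965. The reads of SLC27A4 are uncertain where the spans of these genes overlap.

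SLC27A1, also called FATP1 and known from muscle and fat, stood at 3.60, 3.10, 3.56, 3.10 and 3.41 RPKM in DMSO and at 3.96, 3.90, 3.17, 2.83 and 2.78 in GW3965. The GW3965 group held both the highest and the lowest values. The gene lies at chr19:17468769-17506168 on the plus strand. Its log2 fold change was -0.02 with a 95% interval of -0.27 to 0.22 (limma, adjusted p = 0.987). The sign turned when single libraries were left out. Without DMSO 1, GW3965 1 and GW3965 2 the log2 fold change was -0.17 (limma, adjusted p = 0.582).

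SLC27A3, a member found in many tissues, held 1.21 to 1.61 RPKM in DMSO with a median of 1.50, and 1.38 to 1.74 in GW3965. The log2 fold change was 0.06 with a 95% interval of -0.15 to 0.28 (limma, adjusted p = 0.956). Its span at chr1:153774354-153780157 is overlapped on the same plus strand by INTS3, which held 9.22 and 9.01 RPKM. SLC27A2, the very-long-chain enzyme of liver and kidney at chr15:50182196-50236395, was not tested at 0.219 ± 0.0838 RPKM in DMSO and 0.203 ± 0.0398 in GW3965, with 14 to 39 reads per library.

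CD36, at chr7:80369575-80679277 on the plus strand, was at the limit of detection. It had 18 reads in the 5 DMSO libraries together and 18 in the 5 GW3965 libraries, with means of 0.00928 and 0.00909 RPKM. Single libraries held 2 to 4 reads in DMSO and 0 to 8 in GW3965. GW3965 1, with 0 reads, allows up to 0.00811 RPKM (3 reads, counting error only).

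Of the 10 genes, 6 passed the filter on low values, a mean of 0.5 RPKM over all libraries, and 1, ACSL3, passed the threshold. The unadjusted p was under 0.05 for 3, all of them ACSL genes with higher values in GW3965, against 4.64% of all tested genes that were higher and 6.99% in either direction. ACSL3 was also the only 1 of the 6 whose groups did not overlap, against 1.35% of all tested genes that were higher and 0.49% that were lower in this way. The median log2 fold change was 0.37 over the 3 tested ACSL genes and -0.02 over the 3 tested SLC27 genes, where that of all tested genes was 0.0034. These counts were fixed in part by the choice of genes and are not read as a result about them.

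**Figure D3:**
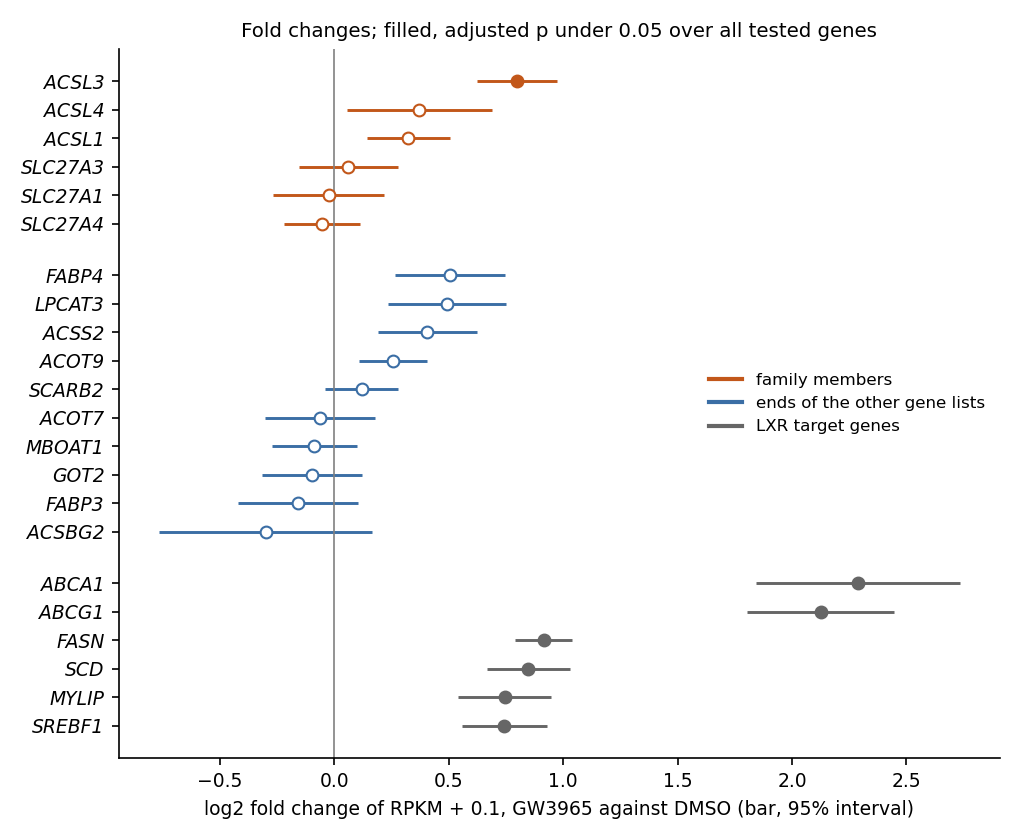
Log2 fold change of RPKM + 0.1 between GW3965 and DMSO with the 95% interval from limma for the 6 tested family genes (orange), the highest and lowest gene of each of 5 related gene lists (blue) and 6 target genes of the receptor (grey); filled points have an adjusted p under 0.05. ACSL3 at 0.80 is the only filled point outside the target genes, and ABCA1 at 2.29 lies farthest to the right.

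Some pairs of members varied together or in opposite directions within the groups, as the plot of gene pairs shows. Over deviations of log2 values from the group means, ACSL3 and ACSL4 had a Pearson r of 0.87. Their Spearman rho was 0.77 (n = 10 libraries, as a description). In Pearson r with ACSL3, ACSL4 had rank 185 among all tested genes. Without DMSO 1 and DMSO 4, the libraries farthest from the median of ACSL3, r was 0.67. ACSL1 deviated the other way from ACSL3, with an r of -0.69 and a rho of -0.53, but r was 0.18 without the same libraries, so that relation rested on them. SLC27A1 and SLC27A4 had an r of -0.80 and a rho of -0.71, and r was -0.65 without GW3965 1 and GW3965 2. All of these genes share libraries, normalization and depth, and the deviations moved with the first principal component too. Its r with SLC27A4 was -0.89, with SLC27A1 0.86, with ACSL1 -0.77, with ACSL3 0.56 and with ACSL4 0.54 (deviations from the group means). The part of that component in the relations was not tested.

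**Figure D4:**
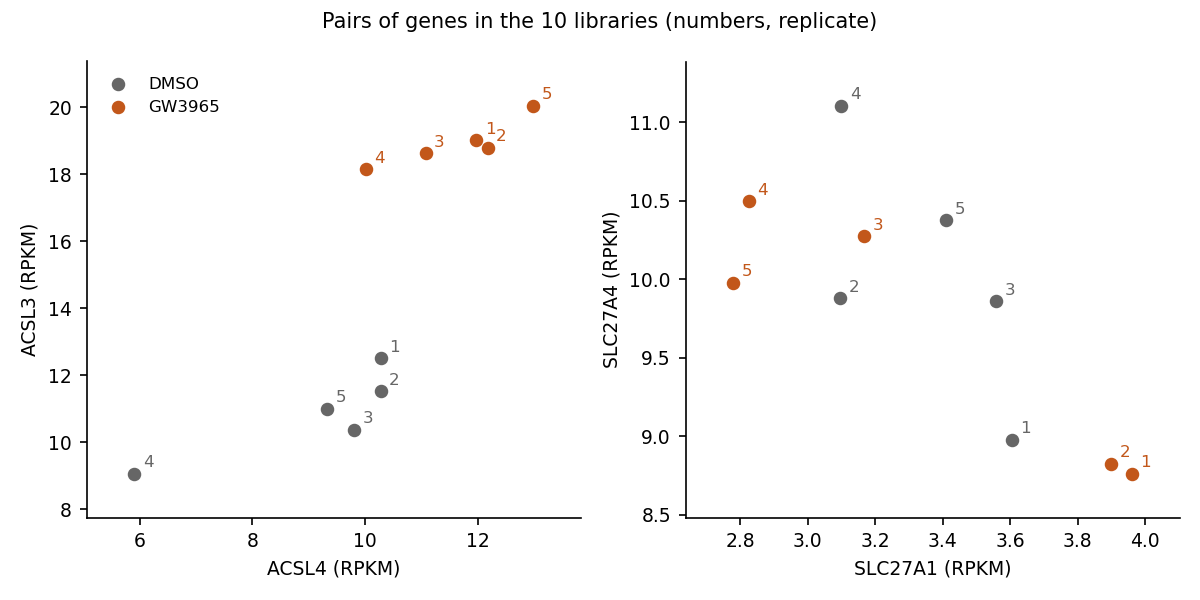
RPKM of ACSL3 against ACSL4 (left) and of SLC27A4 against SLC27A1 (right) in the 10 libraries, DMSO in grey and GW3965 in orange, with replicate numbers; axes are linear and do not start at 0. GW3965 points lie above the DMSO points in ACSL3 at any level of ACSL4, DMSO 4 is lowest in both, and in the right panel GW3965 1 and 2 lie at the high end of SLC27A1 and the low end of SLC27A4.

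Across all 10 libraries the genes most like ACSL3 were AP003097.1, a processed pseudogene (r = 0.97), SH3D19, an adaptor protein gene (0.97), EPB41L2, of the membrane skeleton (0.96), AL359182.1, an antisense RNA that overlaps ABCA1 (0.96), and ABCA1, the cholesterol exporter (0.96). These values carry the difference between the groups, and each stayed at or above 0.947 when any 1 library was left out. Over deviations from the group means, other genes came first. They were TERF1, a telomere protein gene (0.98), APOOL, of the inner mitochondrial membrane (0.97), IQGAP1, a scaffold protein gene (0.97), the pseudogene MAPK6PS6 (0.96) and TAF9B, of the transcription machinery (0.96). Their lowest values, between 0.904 and 0.956, came without DMSO 4, the library with the lowest ACSL3.

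Related genes of acyl-CoA metabolism were counted in 5 further lists with 79 genes, of which 46 were tested. At the threshold 0 of the 46 were called by limma, against 0.157% of all tested genes. For 8 of the 46 the p before adjustment was under 0.05, against 6.99% of all tested genes, and of all tested genes 51.1% had a positive log2 fold change. By limma's voom on the recovered reads 0 were called too, and with the first principal component as a covariate 3 were: ACOT9, FABP4 and GCH1. With GW3965 higher, the groups did not overlap for 1 gene in each of the synthetase, thioesterase and binding protein lists. This held for 2 genes of the peroxidation list and 0 of the uptake list, against 1.35% of all tested genes. With GW3965 lower it held for 0 genes of each list, against 0.49%.

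The other acyl-CoA synthetases had 6 of 17 genes tested, 4 with a positive log2 fold change and a median of 0.03. ACSS2, which makes acetyl-CoA from acetate, was at the upper end with 21.8 ± 2.30 RPKM in DMSO and 28.9 ± 3.57 in GW3965. The groups did not overlap, and the log2 fold change of 0.41 (standard error 0.10) had an adjusted p of 0.221 by limma. ACSBG2 was at the lower end with -0.30 (limma, adjusted p = 0.859).

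Among the acyl-CoA thioesterases, which undo the activation, 8 of 14 were tested and 4 were positive, with a median of 0.0012. ACOT9, a mitochondrial thioesterase, held 6.46 ± 0.528 and 7.71 ± 0.388 RPKM without overlap of the groups, with a log2 fold change of 0.25 (limma, adjusted p = 0.279). ACOT7 was lowest at -0.06 (limma, adjusted p = 0.960).

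Of the binding proteins for fatty acids and acyl-CoA 11 of 17 were tested and 6 were positive, with a median of 0.0021. FABP4, a fatty acid carrier known from adipocytes and macrophages, held 10.5 ± 0.956 RPKM in DMSO and 15.1 ± 2.39 in GW3965. Its groups did not overlap, and the log2 fold change of 0.51 (standard error 0.11) had an adjusted p of 0.151 by limma. FABP3, the carrier of heart muscle, was lowest at -0.16 (limma, adjusted p = 0.871). The adipocyte markers beside it were low in both groups, PLIN1 at 0.277 RPKM in DMSO and 0.397 in GW3965, LEP at 0.00735 and 0.0468 and ADIPOQ at 0.0208 and 0.0126, and their part in the FABP4 values was not tested.

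The other genes of uptake and sensing had 7 of 15 tested and 3 positive, with a median of -0.0060. Their ends were SCARB2 at 0.12 (limma, adjusted p = 0.818) and GOT2 at -0.10 (limma, adjusted p = 0.924). LPL, the lipase that frees fatty acids from lipoproteins, had 0 reads in all 10 libraries.

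The genes of membrane lipid peroxidation and its defence, the setting in which ACSL4 and ACSL3 are often studied, had 14 of 16 tested and 12 positive, with a median of 0.08. LPCAT3, which places polyunsaturated chains in phospholipids, was highest. It held 2.32 ± 0.42 RPKM in DMSO and 3.27 ± 0.30 in GW3965 without overlap, and its log2 fold change of 0.49 (standard error 0.12) had an adjusted p of 0.213 by limma. MBOAT1 was lowest at -0.09 (limma, adjusted p = 0.916).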

How the data were processed

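RNA of 10 PC3 libraries was sequenced as single reads of 50 bases from ribosome-depleted, stranded libraries. The authors deposited RPKM values per gene, 1 column per library, and no other file was used. The submitters' processing notes name bcl2fastq 2.20.0.422, cutadapt, HISAT2 2.1.0, HTSeq 0.11.2, DESeq2 1.22.2 and hg38. The methods instead name a mouse genome, while all identifiers are human. The annotation release is not given in the sources used here. Whole reads were recovered from the steps of the RPKM values, and 100% of 380271 values above 0 were whole within 0.001 reads. The step of each gene was chosen to make its values whole, so this share does not test the recovery. The library factors in the values were median-of-ratios size factors. For 994 genes a common factor was placed by GENCODE 29 length. No column belonged to another sample.

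The groups were compared with limma 3.58.1 (lmFit, eBayes with trend; R 4.3.3) on log2(RPKM + 0.1). A gene was tested if it averaged 0.5 RPKM or more, which 20402 did. Tests were two-sided, and the threshold was a Benjamini-Hochberg adjusted p of 0.05. The test was also run on simulated data with independent libraries. Those held no component shared between libraries, so that run does not cover the differences between libraries seen here. Alternatives were other pseudocounts, filters, scalings, covariates and weights, voom on the recovered reads, the replicate number as a block, and libraries left out.

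Groups came from the sample titles. The 10 genes and the lists were chosen with earlier results of these data known. All 10 were named, with, from each list, called genes and both ends, and the 5 genes most like ACSL3 by each measure. The kit is for total RNA, while the labels say polyA RNA. Intervals cover counting error or the spread between libraries only. No pair of libraries matched within sampling noise (lowest chi-square per degree of freedom 7.64). Protein sequences were not used here.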

Additional observations from a re-analysis of the deposited data

Results flagged for a closer look

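Each gene in each treatment group was examined for a library apart from the rest, and 2 of 52 such sets held 1, where chance gives about 1 in 20. Both cases were DMSO 4, the library at the low end of the first principal component. ACSL4 was lowest there at 5.91 RPKM, against 9.32 to 10.3 in the other DMSO libraries, and the gap to the nearest was 0.823 of the range. SLC27A2 was highest there at 0.367 RPKM, from 39 reads, against 0.166 to 0.199, and the gap was 0.791 of the range. The limit for 5 libraries is 0.71.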

How the results depend on the processing

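ACSL3 passed the threshold in all 23 alternatives, and the count of called family genes stayed at 1 except with the first principal component as a covariate, where it was 2. The count over all genes, 32, moved more: 21 without a filter, 20 without the trend, 56 with library weights, 63 with voom, 21 with the 7SL share and 155 with the first principal component as a covariate, and 18 without DMSO 1, GW3965 1 and GW3965 2. The split of 30 higher and 2 lower genes became 31 and 6 with quantile normalization. Leaving out 1 library gave 17 to 38 genes. It was 17 without GW3965 2 or GW3965 4, 18 without DMSO 3 and 19 without GW3965 3. For ACSL3 it gave log2 fold changes of 0.74 to 0.85, and for ACSL4 0.22 to 0.42, lowest without DMSO 4.

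SLC27A1 ranged from -0.090 to 0.034 on leaving out 1 library and turned positive without DMSO 1 (0.0015), GW3965 4 (0.029) or GW3965 5 (0.034). ACOT7 turned positive with library weights (0.0076) and without the 3 libraries together (0.015). The cause was not tested.

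The replicate numbers did not pair the samples: correlations of same-numbered deviations were 0.15, -0.05, 0.04, 0.16 and -0.14, and only replicate 4 matched its own number best. With the replicate number as a block 16 genes were called, ACSL3 among them (log2 fold change 0.80, limma, adjusted p = 0.0163), and SREBF1 and MYLIP lost their call, as they did without the 3 libraries. Under the block no other call changed among the 6 tested family genes, the 6 target genes and the ends of the 5 lists. The untested genes, with at most 39 reads per library, limit what can be said of ACSL5, ACSL6, SLC27A2 and CD36.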

Other observations

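Further genes of the binding protein and lipid peroxidation lists were chosen after their values had been seen: MBOAT2, FTH1, GCH1 and DBI for an unadjusted p under 0.05, and GPX4 for its place in that pathway. MBOAT2, an acyltransferase of phospholipids, held 5.32 ± 0.677 RPKM in DMSO and 7.02 ± 0.722 in GW3965, and the groups did not overlap (log2 fold change 0.40, limma, adjusted p = 0.224). FTH1, a ferritin subunit, held 252 ± 31.5 and 326 ± 50.1 RPKM (0.37, limma, adjusted p = 0.443). GCH1, the first enzyme of tetrahydrobiopterin synthesis, held 6.84 ± 1.06 and 8.58 ± 0.502 RPKM (0.33, limma, adjusted p = 0.355). DBI, the acyl-CoA binding protein, held 10.1 ± 0.930 and 13.4 ± 1.75 RPKM (0.40, limma, adjusted p = 0.231). GPX4, which reduces lipid peroxides, held 48.7 ± 2.69 and 52.6 ± 3.66 RPKM (0.11, limma, adjusted p = 0.804). The groups overlapped for FTH1, GCH1, DBI and GPX4.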
